A study of Rattus norvegicus with 10 samples.

Results

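The leukocyte and microglia miRNAs are 6 mature miRNAs that blood-derived immune cells and brain macrophages are known for. They were chosen by name from the table of mature rat miRNAs, and all 6 members (miR-142-3p, miR-142-5p, miR-150-5p, miR-223-3p, miR-342-3p and miR-342-5p) were among its 765 rows. The values are small RNA sequencing read numbers scaled to each library's own divisor (RPM), from hippocampus, the brain region of memory formation, of Wistar rats aged 10 weeks. The 5 sham-operated libraries (replicates 1 to 5) are compared with 5 libraries of the 2-VO operation (replicates 3, 5, 6, 7 and 8), in which the common carotid arteries of both sides are occluded so that less blood reaches the brain. The labels give no genetic change in either group, no time between operation and sampling, and no word on whether a library is 1 animal or a pool.

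Each miRNA is cut from a hairpin precursor whose arms, named 5p and 3p, can both yield a mature strand. The bases 2 to 8 of that strand, the seed, direct it to its messenger RNA targets. miR-142 is made throughout the blood lineage, microglia included, and is often used as its marker. miR-223 belongs to granulocytes and other myeloid cells, miR-150 to mature lymphocytes, where it limits the transcription factor Myb, and miR-342 lies within Evl, a gene for an actin regulator that is active in blood cells and in brain. Brain tissue holds such cells as resident microglia and as leukocytes left in the vessels, and bulk RNA does not separate these sources.

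RefSeq (rat build GRCr8) gave the mature sequence of 5 of the 6 members. They are shown 5′ to 3′ with the seed in capitals, to show that no pair of members has the same one. miR-150-5p is named only.

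miR-142-3p: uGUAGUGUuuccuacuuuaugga

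miR-142-5p: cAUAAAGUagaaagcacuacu

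miR-223-3p: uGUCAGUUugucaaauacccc

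miR-342-3p: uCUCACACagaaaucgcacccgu

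miR-342-5p: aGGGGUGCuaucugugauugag

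None of these 5 seeds was shared with another member or with any other of the 693 mature rat names in the RefSeq table. The 5 sequences run from 21 to 23 bases, and their share of G and C runs from 33.3% in miR-142-5p to 52.2% in miR-342-3p. The Mir142 hairpin lies at chr10:73055104-73055190 (GRCr8, plus strand), within the span of the gene Tspoap1 and next to Mpo, the myeloperoxidase gene of neutrophils. The Mir342 hairpin lies at chr6:133329655-133329753 (plus strand) within the span of Evl. The Mir223 hairpin lies at chrX:65151383-65151492 (plus strand) between the protein-coding genes Msn and Vsig4. The deposited table has names and no coordinates, so these positions describe GRCr8 and not the build rn6 that the submitters' processing notes name. The hairpins of miR-142 and miR-342 follow, the hairpins whose arms are both members, with the 5p and then the 3p strand in capitals.

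Mir142: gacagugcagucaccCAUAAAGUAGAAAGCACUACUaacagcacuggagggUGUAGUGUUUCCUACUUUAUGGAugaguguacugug

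Mir342: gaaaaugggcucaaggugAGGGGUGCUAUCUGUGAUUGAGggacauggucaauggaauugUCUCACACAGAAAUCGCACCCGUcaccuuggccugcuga

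The libraries rest on 13032805 to 13850400 reads each, and no listed value was made of fewer than 10 reads, so a 0 can hide up to 9. Summed over the listed miRNAs, the RPM came to 60.3% to 78.0% of a library's divisor. The lowest share was that of 2-VO replicate 3, which also had the lowest level of the red blood cell miR-451-5p (5.76 RPM). Among the rows were 9 pairs with nearly the same values, for example let-7a-5p with miR-3596a and miR-125b-5p with miR-3588. Whether such a pair counts the same reads in both rows was not tested. If it does, the listed RPM used below is too high by those reads. The miRNAs listed for neurons, miR-9a-5p, miR-124-3p and miR-128-3p, were abundant in every library, at 25.2% to 27.3% of the listed RPM. Most of this was miR-9a-5p, at 18.7% over all libraries.

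The 6 members were a small part of the hippocampal miRNA pool. Their summed level ran from 363 to 409 RPM in sham libraries and from 318 to 415 RPM in 2-VO libraries, which is 0.0489% to 0.0596% of the listed RPM. For comparison, the red blood cell list (miR-451-5p, both arms of miR-144, and miR-486) took 0.0141% to 0.0295%, and the vessel list (both arms of miR-126a, miR-143-3p and miR-145-5p) took 2.49% to 3.04%. The group means of the members' sum were 390.5 ± 17.3 RPM in sham and 370.0 ± 38.9 RPM in 2-VO (SD, n = 5 each), and the groups overlapped. The difference, 2-VO minus sham, was -20.5 RPM, with -7.38 RPM without 2-VO replicate 3, which had the lowest sum of all, and -31.7 RPM without 2-VO replicate 5, which had the highest. As a share of the listed RPM the means were 0.0545% ± 0.00440 and 0.0535% ± 0.00374. The parts of the sum did not share 1 direction. Both strands of miR-142 together had the higher mean in 2-VO (35.5 against 30.9 RPM). Both strands of miR-342 together had the lower one (111.6 against 123.5 RPM). With miR-342 left out, the difference of the sum was -8.52 RPM. Its share of the listed RPM was then 0.03722% (sham) and 0.03735% (2-VO). A change in cell number and a change in RNA per cell cannot be told apart in such bulk values.

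The members kept 1 order of level in all 10 libraries, with no overlap between neighbours in that order. miR-150-5p was highest, followed by miR-342-3p, miR-142-3p, miR-142-5p, miR-342-5p and miR-223-3p. miR-150-5p took 53.1% to 65.5% of the members' summed RPM and miR-342-3p 23.3% to 34.5%, so these strands made up most of the sum. Over the libraries miR-150-5p stood at 6.51 to 13.7 times miR-142-3p. Which cells of the tissue held miR-150-5p and miR-342-3p was not tested. miR-142-3p, the strand most widely used as a marker of blood cells, took 4.23% to 8.16%. Adapter ligation favours some sequences over others, so RPM values rank different miRNAs less surely than they rank libraries, and mature strands of nearly equal length need no scaling by length.

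**Figure D1:**
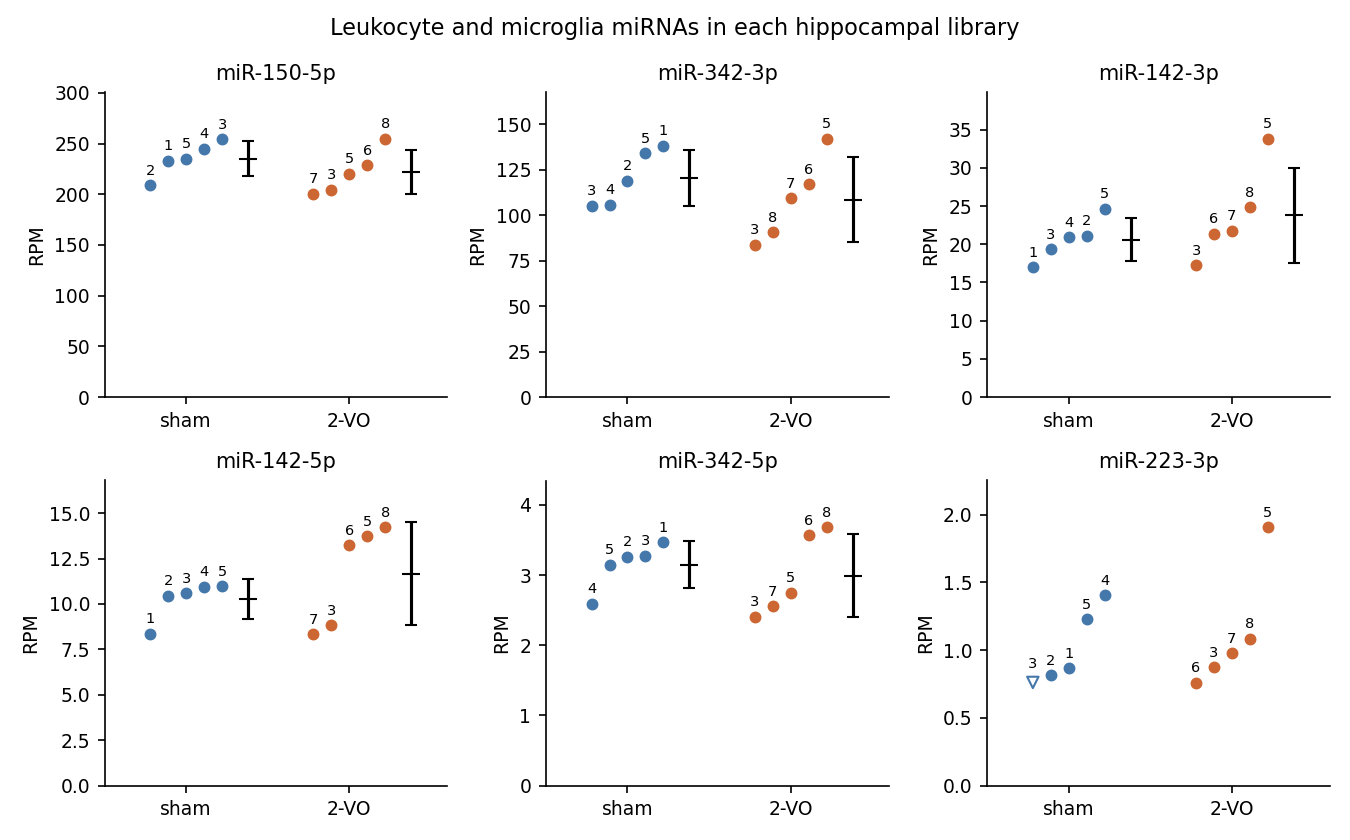
RPM (linear axes from 0) of the 6 members in each library, 1 point per library labelled with its replicate number and sorted by value within its group, with the group mean and SD as the black bar (left out for miR-223-3p). The open triangle marks the limit of 10 reads in sham replicate 3, where miR-223-3p is listed at 0. The groups overlap in all 6 panels, and the highest library of each panel belongs to the 2-VO group. This also held for 50.2% of all 474 miRNAs. Scaled to the listed miRNA reads, it held for 3 of the 5 tested members and 56.8% of the 474.

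miR-150-5p, known from lymphocytes, ranked 145 among the 765 rows. Its sham values were 233.1, 208.9, 254.1, 245.0 and 235.0 RPM in replicates 1 to 5. In 2-VO replicates 3, 5, 6, 7 and 8 they were 204.4, 220.4, 228.9, 200.4 and 254.9 RPM. The highest and the lowest value both lay in the 2-VO group, and the groups overlapped almost fully. Its coefficient of variation over the 10 libraries was 8.64%, the smallest of the members, where counting alone would give 1.81%. The other arm of the same hairpin, miR-150-3p, stood at 3.76 to 6.78 RPM.

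miR-342-3p, the abundant strand of the Evl-hosted hairpin, ranked 187. It stood at 138.2, 118.9, 105.1, 105.7 and 134.0 RPM in sham replicates 1 to 5. The values of the 2-VO replicates 3, 5, 6, 7 and 8 were 83.7, 142.1, 117.1, 109.3 and 90.6 RPM. Replicates 3 and 8 of the 2-VO group lay below every sham library, and 2-VO replicate 5 lay above them all. The minor strand miR-342-5p stood at 2.59 to 3.47 RPM in sham and 2.41 to 3.69 RPM in 2-VO libraries, from 33 to 51 reads. Its coefficient of variation was 0.964 times that of counting error, so its differences between libraries were not larger than counting would give.

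miR-142-3p, the marker strand of the blood lineage and microglia, ranked 286. Its sham values were 17.0, 21.1, 19.4, 20.9 and 24.6 RPM in replicates 1 to 5. The 2-VO libraries held 17.3, 33.8, 21.4, 21.8 and 24.9 RPM in replicates 3, 5, 6, 7 and 8. A single library, 2-VO replicate 5, lay well above the rest, 2-VO replicate 8 lay just above the highest sham library, and the other 2-VO libraries lay within the sham range. The partner strand miR-142-5p stood at 8.38, 10.5, 10.6, 11.0 and 11.0 RPM in the sham replicates. In the 2-VO replicates it stood at 8.82, 13.7, 13.2, 8.34 and 14.2 RPM, so that 3 libraries (5, 6 and 8) lay above every sham library and 1 (replicate 7) lay below them all.

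miR-223-3p, the granulocyte and myeloid miRNA, was close to the limit of the table. It was listed at 0 in sham replicate 3, and the other 9 libraries held 10 to 25 reads, which is 0.760 to 1.91 RPM. The highest value, 1.91 RPM in 2-VO replicate 5, had an exact Poisson 95% interval of 1.24 to 2.82 RPM, which covers counting error only and overlaps the interval of sham replicate 4 (0.846 to 2.20 RPM around 1.41 RPM). The passenger strand miR-223-5p was listed at 0 in all 10 libraries, as were both arms of miR-511, a miRNA of tissue macrophages hosted by the mannose receptor gene. With a mean of 0.992 RPM, miR-223-3p missed the filter of at least 1 RPM that the other 5 members passed.

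**Figure D2:**
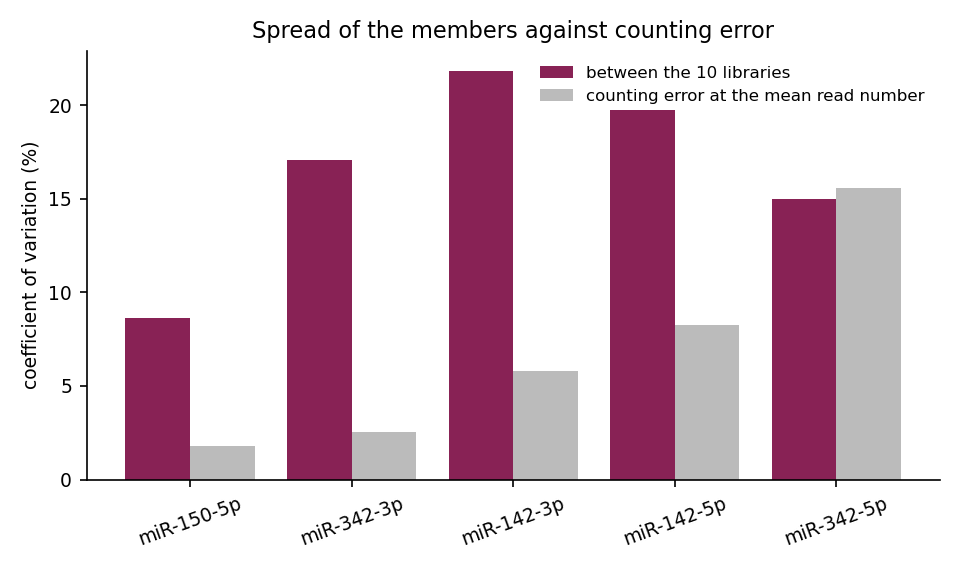
Coefficient of variation in percent (bars from 0) over the 10 libraries and the value that counting error alone gives at the mean read number, for the 5 members with a mean of at least 1 RPM. miR-342-3p varied 6.69 times as much as counting error and miR-342-5p 0.964 times.

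The comparison of 2-VO with sham asks whether carotid occlusion went with more or less of these miRNAs in the hippocampus. None of the 5 members tested passed (limma's moderated test on log2(RPM + 1) over 474 miRNAs, Benjamini-Hochberg adjusted p = 0.87 to 0.96, two-sided). The background was 0% of the 474 miRNAs past an adjusted p of 0.05, and limma's voom also gave 0 (25 at an unadjusted p under 0.05). At an unadjusted p under 0.05 there were 0 members, beside 24 of all 474 miRNAs (5.06%). Of the 474 miRNAs, 0.633% had groups that did not overlap, and 0 of the members did. By direction, 2 members lay higher and 3 lower in 2-VO with a median log2 difference of -0.064, where 62.2% of all miRNAs lay lower and the median was -0.051.

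Both strands of miR-142 had the higher mean in 2-VO. For miR-142-3p the means were 20.6 ± 2.80 and 23.8 ± 6.21 RPM (SD, n = 5 each), and the log2 fold change came to 0.18 with an SE of 0.16 (adjusted p = 0.88 by limma). The value was 0.046 without 2-VO replicate 5 and 0.28 without 2-VO replicate 3, so 1 library moved it either way. For miR-142-5p the means were 10.3 ± 1.08 and 11.7 ± 2.85 RPM, a log2 fold change of 0.14 ± 0.16 (limma adjusted p = 0.92), with 0.081 and 0.23 without the same libraries. The 95% intervals in fold terms ran from 0.891 to 1.43 for miR-142-3p and from 0.873 to 1.40 for miR-142-5p. Scaled to the listed miRNA reads, the log2 fold changes were 0.23 for miR-142-3p and 0.20 for miR-142-5p (limma adjusted p = 0.68 each).

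miR-150-5p and both strands of miR-342 had the lower mean in 2-VO. miR-150-5p stood at 235.2 ± 17.0 and 221.8 ± 21.8 RPM, a log2 fold change of -0.087 ± 0.10 (limma adjusted p = 0.93) with a 95% interval of the fold from 0.811 to 1.09. Its log2 fold change was -0.14 without 2-VO replicate 8, -0.052 without 2-VO replicate 7 and -0.029 when scaled to the listed miRNA reads. miR-342-3p stood at 120.4 ± 15.5 and 108.6 ± 23.1 RPM, a log2 fold change of -0.16 ± 0.14 (limma adjusted p = 0.87), or -0.077 without 2-VO replicate 3 and -0.27 without 2-VO replicate 5. Scaled to the listed miRNA reads it was -0.11. For miR-342-5p the log2 fold change was -0.064 ± 0.14 (limma adjusted p = 0.96), with a fold interval of 0.780 to 1.17, and single libraries left out gave -0.0093 (without 2-VO replicate 3) to -0.12 (without 2-VO replicate 8). miR-223-3p entered the fit only when the filter was lowered to a mean of 0.9 RPM, a setting chosen after its values were seen, and had a log2 fold change of 0.22 ± 0.23 there (limma adjusted p = 0.90 over 479 miRNAs).

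**Figure D3:**
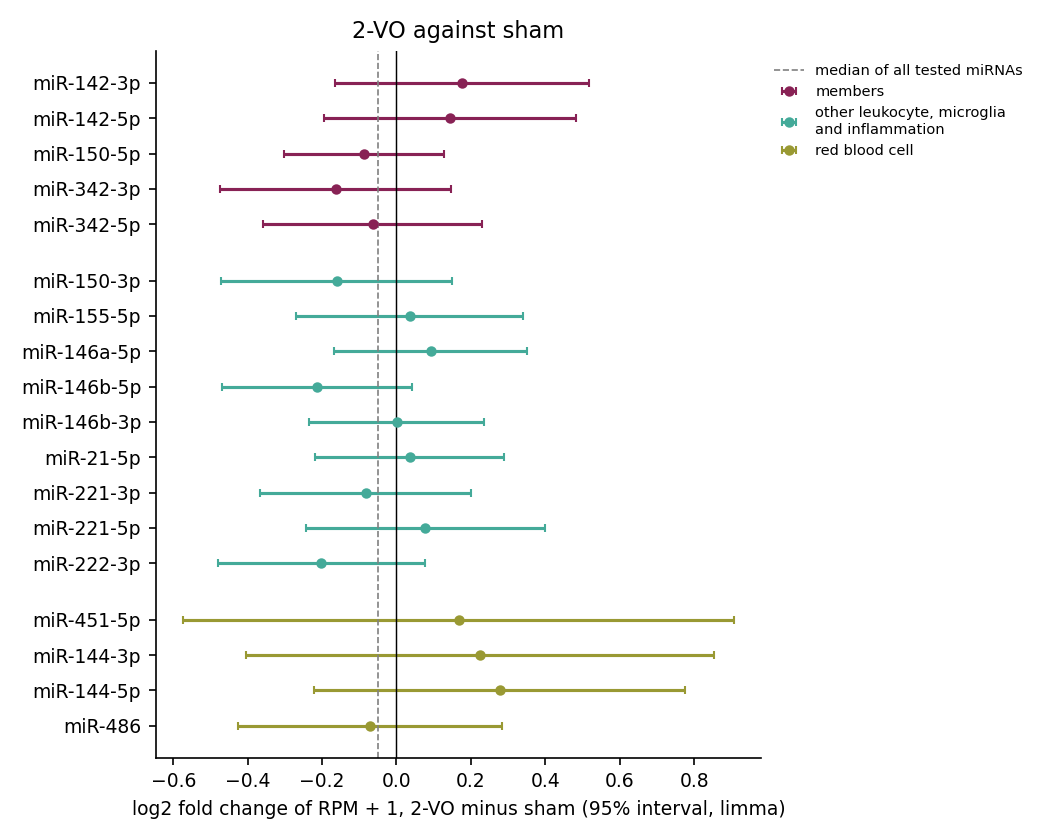
Log2 fold change of RPM + 1 in 2-VO against sham with its limma 95% interval (horizontal bars) for the 5 members tested, 9 other leukocyte, microglia and inflammation miRNAs and 4 red blood cell miRNAs; the dashed line is the median of all 474 miRNAs, -0.051. Each interval holds 0.

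The wider list of leukocyte, microglia and inflammation miRNAs did not stand apart either. Of its 16 names 9 were tested, 5 higher and 4 lower in 2-VO with a median log2 difference of 0.00057, and 0 passed in limma, either before or after adjustment. miR-146b-5p, a brake on inflammatory signalling, stood at 1943 and 1676 RPM in sham and 2-VO (log2 fold change -0.21, 95% interval -0.47 to 0.042). miR-155-5p, which activated macrophages and lymphocytes induce, rested on 19 to 31 reads per library and had a 95% interval of -0.27 to 0.34. The strands miR-155-3p, miR-223-5p, miR-511-3p and miR-511-5p were at 0 throughout. In the red blood cell list 3 of 4 members lay higher and 1 lower (median 0.20, 0 past the threshold, limma), and its summed level ran from 84.9 to 219.7 RPM in 2-VO against 131.2 to 156.6 RPM in sham. The highest of these sums lay in 2-VO replicate 8, which was also highest in miR-150-5p, miR-142-5p and miR-342-5p, and the lowest in 2-VO replicate 3, which was also lowest in both strands of miR-342. The choroid plexus and epithelium list summed to 554.6 to 953.6 RPM in sham and 388.6 to 602.1 RPM in 2-VO, with 2 of its 5 miRNAs at an unadjusted p under 0.05 and 0 after adjustment (limma). Most of this sum was miR-204-5p, with means of 646.1 and 432.4 RPM. miR-200a-3p and miR-200b-3p had the higher mean in 2-VO (1.68 and 6.20 RPM, 1.43 and 5.37 RPM). Both were highest in 2-VO replicate 3, at 21.9 and 18.4 RPM. The part of the red blood cell list or of this list in the members' values was not tested.

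The arms of a hairpin come from 1 transcript, and their ratio was taken within each library as the log2 ratio of RPM + 1. The added 1 RPM pulls the ratio of a low arm such as miR-342-5p or miR-150-3p towards 0, so these log2 ratios are smaller in size than the plain RPM ratios given in times beside them. The ratio did not differ between the groups beyond the spread for any member (limma over 132 hairpins, 0% past an adjusted p of 0.05, and 15 at an unadjusted p under 0.05). For miR-142 the log2 ratio of 5p to 3p was -0.94 ± 0.11 in sham and -0.97 ± 0.28 in 2-VO (SD, n = 5), which differ by -0.033 with an SE of 0.13 (adjusted p = 0.93 by limma). miR-142-3p exceeded miR-142-5p by 1.61 to 2.61 times over the libraries. For miR-342 the log2 ratio was -4.87 ± 0.15 and -4.77 ± 0.36, a difference of 0.10 ± 0.15 (limma adjusted p = 0.81), and the 3p strand exceeded the 5p strand by 24.6 to 51.7 times. The 5p strand of miR-150 exceeded its 3p strand by 31.3 to 53.4 times, with log2 ratios of 5.07 ± 0.21 and 5.14 ± 0.24 (limma adjusted p = 0.85). Both strands of miR-142 stood at near levels, while miR-342 and miR-150 had 1 strand far above the other in all 10 libraries.

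**Figure D4:**
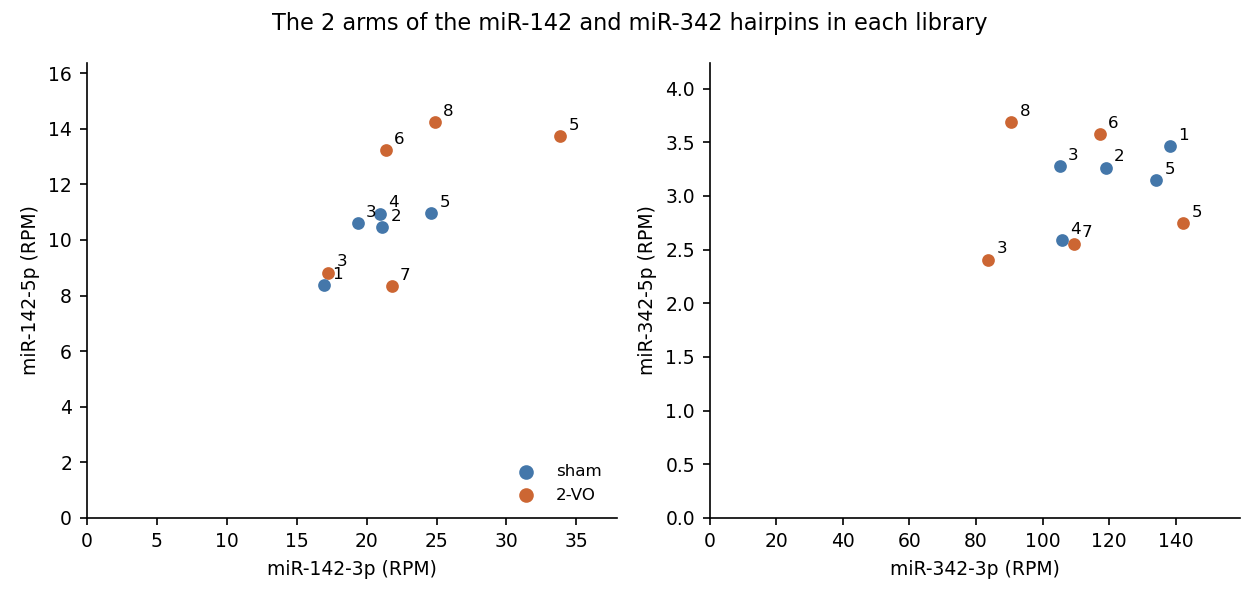
RPM of the 5p strand against the 3p strand (linear axes from 0) of miR-142 (left) and miR-342 (right), 1 point per library with its replicate number. The miR-142 strands run from low in sham replicate 1 and 2-VO replicate 3 to high in 2-VO replicates 5 and 8 (r = 0.72). Off this run lies 2-VO replicate 7, with the lowest 5p value (8.34 RPM) at a 3p value of 21.8 RPM (r = 0.80 without it). For miR-342 the replicate with the highest 5p value, 2-VO replicate 8, has the second lowest 3p value (r = 0.23).

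Covariation asks whether the members move together from library to library. Over the 10 libraries 35 relations were computed, 10 between the 5 tested members and 25 with markers of red blood cells (miR-451-5p), endothelium (miR-126a-3p) and inflammation (miR-21-5p, miR-146a-5p and miR-155-5p). None passed after Benjamini-Hochberg adjustment over the 35 (permutation tests with 100000 permutations, two-sided, adjusted p = 0.15 at the lowest), beside 4 before adjustment. The median Pearson r of the 10 member pairs was 0.31, close to the 0.29 of all 112101 pairs of the 474 miRNAs. A library's divisor is common to all its miRNAs. Scaled to the listed miRNA reads, the median was -0.066 for the members and 0.039 for all pairs.

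The closest member pair was the 2 strands of miR-142. Their r was 0.72 (n = 10 libraries, permutation p = 0.014, adjusted p = 0.17), and Spearman's rho was 0.67 (permutation p = 0.039, adjusted p = 0.43). Without 2-VO replicate 5 and sham replicate 1, the libraries farthest from the median of miR-142-3p, r was 0.56. As deviations from the group means r was 0.69 (exact permutation within groups, p = 0.060). Of all miRNA pairs, 7.28% had an r at least as high, and 4.16% had one when scaled to the listed miRNA reads, where r was 0.66.

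The strands of miR-342 did not show the same closeness. Their r was 0.23 (n = 10 libraries, permutation p = 0.52, adjusted p = 0.77) and rho 0.12 (permutation p = 0.76, adjusted p = 0.92), with r = 0.050 without 2-VO replicates 3 and 5, and 57.2% of all miRNA pairs had a higher or equal r. The 5p strand carries the counting error given above, and its part in the low r was not tested. Whether the r of miR-142 and that of miR-342 differ was also not tested.

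Between hairpins the r of the 8 member pairs ran from -0.021 to 0.56. The higher values were those of miR-150-5p with miR-342-5p (0.56, permutation p = 0.095, adjusted p = 0.42; rho 0.61, p = 0.068, adjusted p = 0.43; r = 0.15 without 2-VO replicates 7 and 3) and of miR-142-5p with miR-150-5p (0.49, permutation p = 0.15, adjusted p = 0.53; rho 0.56, p = 0.097, adjusted p = 0.48; r = 0.12 without 2-VO replicates 8 and 7). miR-142-5p with miR-342-5p had 0.42 (permutation p = 0.22, adjusted p = 0.59; rho 0.47, p = 0.18, adjusted p = 0.52; r = 0.093 without the same libraries). These 3 lay above the median of all pairs, and they were -0.042, 0.074 and -0.089 after scaling to the listed miRNA reads. The pair of miR-142-3p and miR-342-3p, given below, also lay above that median and had an r of 0.35 after this scaling. Of all miRNA pairs, 39.5% had an r at least as high as this pair as deposited, and 21.7% when scaled. miR-150-5p and miR-342-3p, the most abundant pair, had an r of -0.021 (permutation p = 0.95, adjusted p = 0.98, n = 10 libraries; rho -0.19, p = 0.61, adjusted p = 0.85) and -0.65 without 2-VO replicates 7 and 3. miR-142-3p had an r of 0.064 with miR-150-5p (permutation p = 0.87, adjusted p = 0.96; rho 0.055, p = 0.89, adjusted p = 0.92; r = 0.38 without 2-VO replicate 5 and sham replicate 1). The r of miR-142-3p with miR-342-3p was 0.39 (permutation p = 0.28, adjusted p = 0.64; rho 0.26, p = 0.47, adjusted p = 0.72; r = 0.48 without those libraries), and single libraries left out moved it from 0.049 (2-VO replicate 5) to 0.68 (sham replicate 1). Among the 2-VO libraries, replicate 5 was highest in miR-142-3p and miR-342-3p, and replicate 8 was highest in miR-150-5p and second lowest in miR-342-3p.

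**Figure D5:**
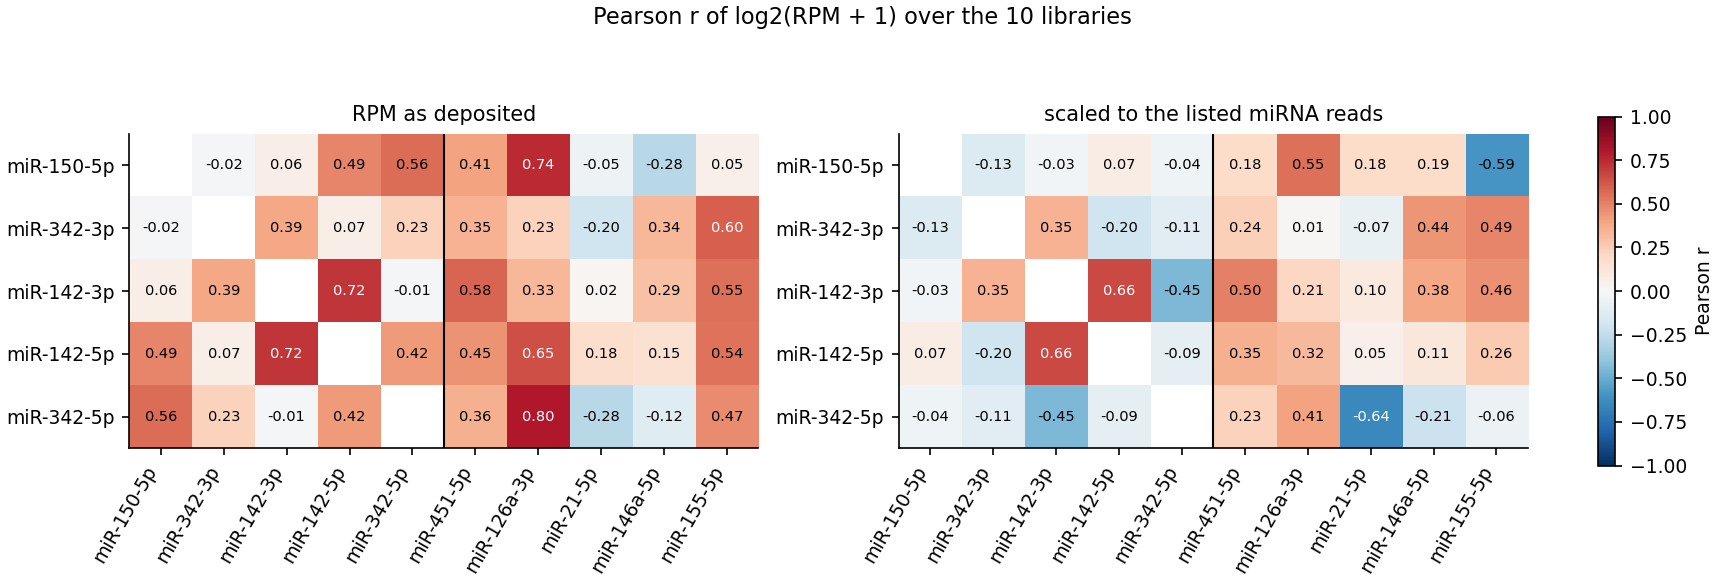
Pearson r of log2(RPM + 1) over the 10 libraries for the 5 tested members (rows) with each other (left of the black line) and with 5 marker miRNAs (right of it), for RPM as deposited (left) and scaled to the listed miRNA reads (right). Among member pairs only the miR-142 strands are above 0.6 in both, at 0.72 and 0.66.

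With markers of other cells, the relations with an unadjusted p under 0.05 were those of the endothelial miR-126a-3p with 3 members. Its r was 0.80 with miR-342-5p (permutation p = 0.0042, adjusted p = 0.15; rho 0.73, p = 0.021, adjusted p = 0.36; n = 10 libraries), and 0.62 without 2-VO replicates 3 and 7. The spread of miR-342-5p over the libraries was no larger than counting error, as given above. With miR-150-5p it was 0.74 (permutation p = 0.012, adjusted p = 0.17; rho 0.78, p = 0.011, adjusted p = 0.36), and 0.41 without 2-VO replicates 7 and 3. With miR-142-5p it was 0.65 (permutation p = 0.040, adjusted p = 0.35; rho 0.60, p = 0.074, adjusted p = 0.43), and 0.29 without 2-VO replicates 8 and 7. Scaled to the listed miRNA reads these were 0.41, 0.55 and 0.32 (permutation adjusted p = 0.83, 0.78 and 0.89). Of all miRNA pairs, 2.80%, 5.49% and 12.4% had an r at least as high as deposited, and 17.7%, 8.62% and 23.8% when scaled. With the remaining members, miR-142-3p and miR-342-3p, miR-126a-3p had an r of 0.33 and 0.23. The inflammatory miR-155-5p had a higher r with both, 0.55 with miR-142-3p (permutation p = 0.097, adjusted p = 0.42; rho 0.49, p = 0.15, adjusted p = 0.49; r = 0.50 without 2-VO replicate 5 and sham replicate 1) and 0.60 with miR-342-3p (permutation p = 0.067, adjusted p = 0.42; rho 0.53, p = 0.12, adjusted p = 0.48; r = 0.40 without 2-VO replicates 3 and 5). Of all miRNA pairs, 21.4% and 16.5% had an r at least as high. The coefficient of variation of miR-155-5p was 0.896 times that of counting error, so its spread was no larger than counting would give. After that scaling the relation of greatest size with these markers was miR-342-5p with miR-21-5p, at -0.64 (permutation p = 0.044, adjusted p = 0.76), which was -0.28 as deposited. With the red blood cell miR-451-5p, miR-142-3p had an r of 0.58 (permutation p = 0.088, adjusted p = 0.42, and rho 0.60, p = 0.073, adjusted p = 0.43). It was 0.84 without 2-VO replicate 5 and sham replicate 1, 0.46 without 2-VO replicate 3, and 0.50 scaled to the listed miRNA reads. Of all miRNA pairs, 18.3% had an r at least as high as deposited, and 11.3% when scaled. The other 4 members had an r of 0.35 to 0.45 with miR-451-5p.

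The miRNAs whose pattern was most like each member were none of the other members. Among 338 or 339 candidates (mean RPM 10 or more), likeness was taken as Pearson r over the 10 libraries, as a description. Nearest to miR-142-3p were miR-106b-5p (r = 0.89), miR-136-5p (0.85) and miR-135a-5p (0.83). Nearest to miR-142-5p were miR-106b-5p (0.92), miR-592 (0.91) and miR-598-3p (0.88), so that miR-106b-5p led for both strands. With scaling to the listed miRNA reads it ranked 3 for miR-142-3p (0.91, after the near-identical rows miR-3592 and miR-382-3p at 0.95) and 2 for miR-142-5p (0.80, after miR-592 at 0.83). As deposited, the nearest to miR-150-5p were miR-100-5p (0.84), miR-379-5p (0.83) and miR-344b-3p (0.81). For miR-342-3p they were miR-495 (0.86), miR-145-5p of smooth muscle (0.84) and miR-702-3p (0.82), and for miR-342-5p miR-380-5p, miR-3557-5p (0.88 each) and miR-374-3p (0.87). After that scaling the nearest were miR-6329 for miR-150-5p (0.80), miR-495 again for miR-342-3p (0.85) and miR-148a-3p for miR-342-5p (0.66). Among all 473 other miRNAs, miR-142-5p ranked 33 in likeness to miR-142-3p, whereas miR-342-5p ranked 202 in likeness to miR-342-3p.

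The 2-VO libraries were the more scattered group for these miRNAs, and for most of all 474 miRNAs, which is given as a description with no test. The 5 tested members include both strands of miR-142 and of miR-342, and the spread of miR-342-5p was no larger than counting error. On the log2 scale the SD was larger in 2-VO than in sham for all 5 tested members, where 67.5% of all 474 miRNAs showed this, and the median ratio of the SDs was 1.76 against 1.27. The highest library was of the 2-VO group for all 5, beside 50.2% of all miRNAs. The lowest was of the 2-VO group for 4 of 5, beside 70.3% of all miRNAs. Scaled to the listed miRNA reads, the SD was larger in 2-VO for 4 of 5. With that scaling the maximum lay in the 2-VO group for 3 of 5 and the minimum for 1 of 5. The shares of all 474 miRNAs were then 58.9%, 56.8% and 54.9%.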

How the data were processed

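The deposited table gives RPM values made by the authors, with a column for each library, per the file headers. bcl2fastq, BWA and rn6 are named in the submitters' processing notes. For the annotation, multiply mapped reads and the make-up of the divisor, no method was found (not given in the sources used here). All 4962 values above 0 were whole reads within 0.01 at 1 divisor per library, with none under 10 reads.

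A filter on mean RPM (1 or more) kept 474 miRNAs, whose log2(RPM + 1) values went into limma 3.58.1 under R 4.3.3 (mean-variance trend, no covariate, Benjamini-Hochberg, threshold 0.05). Arm ratios were tested over 132 hairpins with both arms kept. Permutation tests used Python 3.11.15. The functions were tested on simulated data. Nothing in the labels says that each library is a separate animal: p-values then measure only how these libraries vary, which may be technical.

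Named miRNAs are the members, the 3 most like each, the comparators and fixed lists of other cell types. Members and lists were chosen with earlier results of these data known. Other settings changed the pseudocount, filter, scaling, weights, test and block or left out each library. Of the lists, those not given in the results had the following counts of higher and lower miRNAs in 2-VO and medians of the log2 difference: vessel 1 and 3 (-0.052), neuron 0 and 3 (-0.057), choroid plexus and epithelium 2 and 3 (-0.33), and hindbrain and spinal cord 2 and 0 (0.73), with 0 past the threshold (limma).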

Additional observations from a re-analysis of the deposited data

Results flagged for a closer look

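In 38 groups of 5 values looked at for the members, their arm ratios and the marker miRNAs, 2 had a library whose gap to the nearest other library was above 0.71 of the group's range, where chance alone gives about 1.9. miR-142-5p was lowest in sham replicate 1, at 8.38 RPM against 10.5 to 11.0 RPM in the other sham libraries. miR-223-3p was highest in 2-VO replicate 5, at 1.91 RPM against 0.760 to 1.08 RPM in the other 2-VO libraries. That library also held the highest miR-142-3p and miR-342-3p.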

How the results depend on the processing

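The sign and side of the threshold of the log2 fold changes of the 5 tested members held in all 22 or 23 other settings (smallest adjusted p = 0.53), and 0 relations passed in any of 17 (35 relations in each, 26 in the setting that keeps members of at least 10 RPM). Over all miRNAs 0 passed elsewhere, but 8 of 474 (no member) passed with the replicate block, which rests on the numbers 3 and 5 that occur in both groups and leaves 1 residual degree of freedom. Same-numbered libraries did not deviate together (r = -0.058 and -0.18 over miRNAs), and the block turned the arm differences of miR-150 and miR-342 to -0.12 each. Leaving out 1 library gave 0 to 3 hairpins past the threshold (3 without sham replicate 5, 1 without 2-VO replicate 3), and arm differences of -0.11 to 0.047 for miR-142, -0.00013 to 0.14 for miR-150 and -0.019 to 0.22 for miR-342. Relations between hairpins often changed sign, and so did that of the miR-342 strands. Between hairpins, miR-142-3p with miR-342-3p kept its sign in all 17 settings (0.049 to 0.68). The cause was not tested. Scaled to the listed miRNA reads r was -0.028 (miR-142-3p with miR-150-5p), -0.20 and -0.089 (miR-142-5p with miR-342-3p and miR-342-5p), -0.042 (miR-150-5p with miR-342-5p) and -0.11 (miR-342 strands). With TMM factors it was -0.31, -0.31, -0.094 and -0.0034 for those but miR-150-5p with miR-342-5p, and -0.16 for miR-142-5p with miR-150-5p. For miR-142-3p with miR-342-5p it was 0.063 as group deviations and 0.10 as rho. Leaving out 1 library gave ranges of -0.14 to 0.27 (miR-142-3p with miR-150-5p), -0.29 to 0.28 (miR-142-3p with miR-342-5p), -0.20 to 0.37 (miR-142-5p with miR-342-3p), -0.39 to 0.23 (miR-150-5p with miR-342-3p) and -0.13 to 0.53 (miR-342 strands). A planned count model was not run, because values under 10 reads are listed as 0; this also limits miR-223-3p.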
